A study of Mus musculus with 4 samples.

Results

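The 9 genes described here carry the interferon signal from the cell surface to the nucleus and damp it: the receptor genes Ifnar1, Ifnar2, Ifngr1 and Ifngr2, the kinase genes Jak1 and Jak2, the transcription factor genes Stat3 and Irf1, and the feedback inhibitor gene Socs3. They were taken by symbol from a named list and are 9 of the 32372 gene features in the count matrices. Each was measured in 13940 cells. A barcode counted as a cell with 1000 or more UMIs (unique molecular identifiers, each standing for 1 captured RNA molecule), 500 or more genes and no more than 10% of its UMIs mitochondrial. Levels are a gene's UMIs per 1000000 UMIs of those cells (CPM). Because 3′ counting gives 1 tag per molecule, CPM was not divided by gene length, and levels can be ordered between genes only as far as their 3′ ends are captured alike.

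The cells were CD11b+/CD45+ myeloid cells isolated by fluorescence-activated sorting from left brain hemispheres of mice 4 months old. All 4 libraries came from APP/PS1 mice, an amyloid model of Alzheimer's disease, and all were labelled female. There were 2 libraries with the genotype APP/PS1:miR-155 cKO, in which the microRNA miR-155 was to be deleted in microglia, and 2 APP/PS1 Control libraries. The cKO and Control libraries are called biological replicates in the labels, which name neither the Cre driver nor the deleted part of the locus, and there were no mice without the APP/PS1 transgenes.

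Control replicate 1 went against its label in 1 check. Xist, the RNA that silences 1 X chromosome in female cells, was at 0.704 CPM in Control replicate 1 and at 1756 to 1894 CPM in the other 3 libraries. Mir155hg, the host gene of miR-155, had 7 and 11 UMIs in the Control libraries and 1 UMI in each cKO library, too few to check the deletion. The 10 microglia markers summed to 21243 to 24459 CPM, against 204 to 480 CPM for 5 neutrophil markers, of which up to 3 were at 0 in a library, 15.7 to 50.1 CPM for 5 monocyte markers and 6.23 to 8.13 CPM for 6 markers of border-associated macrophages, so microglia markers far outweighed those of other myeloid cells. Pairs of libraries shared 1 to 4 cell barcodes. The names of the files give cKO replicate 2 a run code of its own, while the remaining 3 libraries share one, so that run and this library cannot be told apart.

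Type I interferons, the alpha and beta forms, bind the receptor made of IFNAR1 and IFNAR2, and interferon gamma binds IFNGR1 and IFNGR2. The receptors have no kinase of their own: JAK1 and TYK2 serve the type I receptor and JAK1 and JAK2 the gamma receptor, and they phosphorylate STAT proteins, which enter the nucleus and switch on interferon-stimulated genes. Among them, STAT2 carries type I signals and STAT3 those of interleukin-6 and interleukin-10. IRF1 is both induced by interferon and a transcription factor for further interferon genes, while SOCS1 and SOCS3 bind receptors and kinases and end the signal. In the brain, microglia with a high interferon programme occur in amyloid models and in ageing.

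Sequences are shown first for the microRNA that was targeted and for the genes whose promoters hold motifs of this pathway. The mature strand of miR-155-5p lies at chr16:84714143-84714165 on the plus strand (RefSeq, GRCm38.p6), and its seed, bases 2 to 8, is in capitals. The match to that seed, AGCATTA, was sought in the longest 3′ UTR of each gene in the GENCODE annotation of GRCm38. Of the 9 genes, Ifngr1 alone held it, with 1 match 498 bases into a UTR of 541 bases, and Socs1, the sister gene of Socs3, held 1 match 20 bases into a UTR of 1993 bases. The sites are printed with flanks, the match in capitals. Of 21877 genes with a 3′ UTR, 7.96% held the same letters, so a match in 1 of 9 genes is near that share.
miR-155-5p: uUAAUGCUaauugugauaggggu
Ifngr1 site: ttttatggAGCATTActtacgat
Socs1 site: tgtgccgcAGCATTAagtggggg

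Promoter windows ran from 250 bases before to 50 bases after each RefSeq start site (GRCm38.p6), and all 9 genes matched an entry by symbol. Both main motifs of the pathway were searched on both strands: GAS, the STAT dimer site, as TTCNNNGAA, which reads the same on both strands, and ISRE, the site of the complex that holds STAT2 and IRF9, as GAAA, any 2 bases and GAAA again, or its complement. Irf1, the gene that followed the interferon state most closely below, held a GAS match starting at position -90 from the start site of its first window, chr11:53769764-53770063 on the plus strand, and its second listed window held none. Socs3 held a GAS match at -154 in chr11:117969317-117969616 on the minus strand, a window that lies inside the gene as GENCODE draws it. Socs1, shown because it rose beside Irf1 while Socs3 did not, held 2 overlapping ISRE matches at -83 and -77 in chr16:10785487-10785786 on the minus strand. Matches are in capitals. Ifnar2 and Ifnar1 also held a GAS match, at -214 and -5, and the other 5 genes held neither motif in this window. Of 32851 promoters, 8.3% held the GAS letters and 3.44% the ISRE letters. A match describes these letters only and is no evidence of binding.
Irf1 promoter: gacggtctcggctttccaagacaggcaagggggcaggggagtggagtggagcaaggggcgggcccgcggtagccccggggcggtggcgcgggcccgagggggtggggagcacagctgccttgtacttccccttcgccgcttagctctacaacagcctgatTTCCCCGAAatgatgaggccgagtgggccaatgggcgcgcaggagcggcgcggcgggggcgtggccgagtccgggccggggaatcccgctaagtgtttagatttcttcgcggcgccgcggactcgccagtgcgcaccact
Socs3 promoter: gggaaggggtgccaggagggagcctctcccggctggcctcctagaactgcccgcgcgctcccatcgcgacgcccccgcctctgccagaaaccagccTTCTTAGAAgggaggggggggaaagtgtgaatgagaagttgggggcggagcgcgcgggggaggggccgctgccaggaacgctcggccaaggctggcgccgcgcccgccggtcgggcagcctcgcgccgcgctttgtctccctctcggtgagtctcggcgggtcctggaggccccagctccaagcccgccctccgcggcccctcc
Socs1 promoter: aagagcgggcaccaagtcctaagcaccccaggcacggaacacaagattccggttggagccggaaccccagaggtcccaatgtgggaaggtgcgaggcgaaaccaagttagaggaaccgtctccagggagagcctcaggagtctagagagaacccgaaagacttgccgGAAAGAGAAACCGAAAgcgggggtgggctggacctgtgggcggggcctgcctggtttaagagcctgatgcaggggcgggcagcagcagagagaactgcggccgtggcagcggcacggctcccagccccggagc

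A run of 3 receptor genes lies together on chromosome 16 (GENCODE, GRCm38): Ifnar2 at chr16:91372783-91405589, Ifnar1 at chr16:91485238-91507441 and Ifngr2 at chr16:91547072-91565623, all on the plus strand. Ifngr1 lies apart at chr10:19591949-19610229. Jak1 is at chr4:101152367-101265282, Jak2 at chr19:29251828-29313080, Stat3 at chr11:100885098-100939540, Irf1 at chr11:53770014-53778374 and Socs3 at chr11:117966079-117970047. Mir155hg is on chromosome 16 as well, at chr16:84703167-84715245.

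All 9 genes were detected in every library, and the interferon gamma receptor led them. Ifngr1, the ligand-binding chain of that receptor, was at 565 and 468 CPM in Control replicates 1 and 2 and at 598 and 610 CPM in cKO replicates 1 and 2. Its partner chain Ifngr2 was at 201, 177, 204 and 212 CPM in the same order. The 2 chains of the type I receptor differed more: Ifnar2 was at 354, 371, 340 and 304 CPM and Ifnar1 at 55.4, 44.2, 53.4 and 59.2 CPM. Each receptor thus had 1 abundant and 1 scarcer transcript in all 4 libraries. Jak1, the kinase that both receptors use, was at 177, 161, 185 and 180 CPM. Jak2, specific to the gamma receptor of this pair, was the scarcest of the 9 genes at 22.0, 19.8, 21.8 and 28.6 CPM. Stat3 was at 79.6, 75.2, 82.3 and 93.3 CPM. Irf1 was at 44.2, 46.2, 51.1 and 62.7 CPM, and Socs3 at 127, 114, 131 and 163 CPM. In cKO replicate 2 the values of Stat3, Irf1, Socs3 and Jak2 were the highest of the 4 libraries, and that of Ifnar2 the lowest.

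Ordered by the mean over 4 libraries, the levels ran from Ifngr1 at 560 ± 64.4 CPM (SD, n = 4) through Ifnar2 at 342 ± 28.5, Ifngr2 at 199 ± 15, Jak1 at 176 ± 10.5, Socs3 at 134 ± 21.1, Stat3 at 82.6 ± 7.69, Ifnar1 at 53.1 ± 6.36 and Irf1 at 51.1 ± 8.30 to Jak2 at 23.1 ± 3.84 CPM. The ranges over libraries overlapped between the neighbours Ifngr2 and Jak1, Jak1 and Socs3, and Ifnar1 and Irf1, so those neighbours were not separated by their spread. For scale, Tyk2, the second kinase of the type I receptor, was at 26.4 ± 2.66 CPM and Socs1 at 12.4 ± 1.95 CPM (n = 4 each). In barcodes with at most 100 UMIs, which hold free RNA, the receptor genes and Jak1 were at 0.564 to 0.806 times their level in cells. Irf1 was there at 0.800 to 1.01 times, Socs3 at 0.888 to 1.03 times and Jak2 at 0.880 to 1.04 times its level in cells, so for these 3 genes free RNA was as rich, or nearly so, as the cells.

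**Figure D1:**
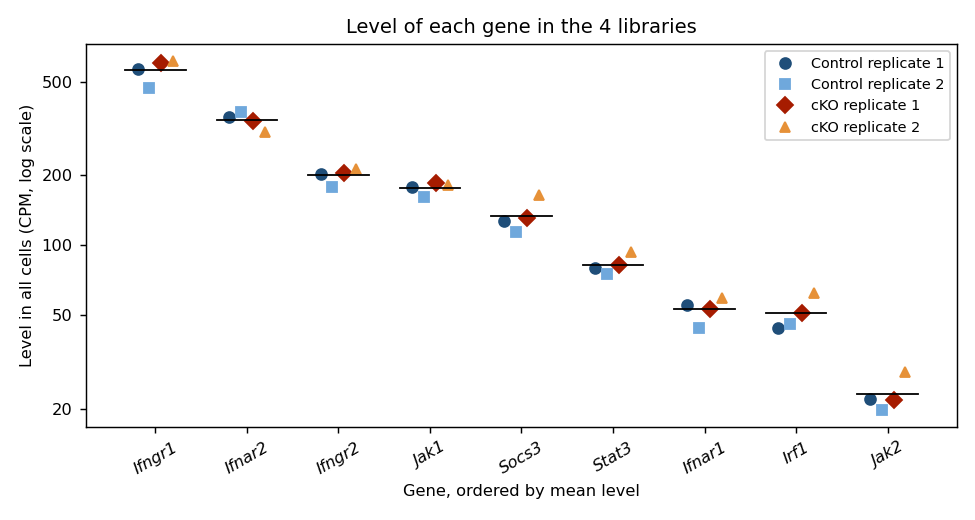
Level of each of the 9 genes in each of the 4 libraries (y axis, CPM on a log scale; x axis, genes ordered by mean), with a bar at the mean of the 4 libraries. The genes span 560 CPM for Ifngr1 to 23.1 CPM for Jak2, and the libraries of 1 gene lie close together compared with that span.

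Interferon-high cells, with UMIs of at least 3 of the 5 interferon-induced genes Ifit1, Ifit2, Ifit3, Isg15 and Rsad2, showed 1 clear change among the 9 genes. Irf1 rose about 1.52-fold in them, Stat3 rose slightly, Ifngr1 fell slightly, and the other 3 receptor genes, both kinases and Socs3 did not pass the test. There were 347 and 228 such cells in Control replicates 1 and 2 and 290 and 227 in cKO replicates 1 and 2, or 7.58 to 7.98% of each library. They were compared with the other cells of their own library on UMIs summed per library and class (edgeR quasi-likelihood test with the library as a block, Benjamini-Hochberg adjustment over 12910 genes). Of all genes tested 6.3% rose and 2.96% fell, and of the 9 members 2 rose and 1 fell. The members' median log2 change was 0.05 against -0.004 over all genes tested.

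Interferon-high cells were deeper than the others, with medians of 10148 to 13080 against 5979 to 7098 UMIs. After thinning to 2000 UMIs, only 1.98% and 1.18% of cells in Control replicates 1 and 2 and 2.06% and 2.74% in cKO replicates 1 and 2 met the rule. MGnD-high cells, explained below, made up 13.7 to 38.3% of interferon-high and 8.44 to 18.4% of other cells. Barcodes with markers of another cell class made up 11.4 to 21.0% of interferon-high and 4.89 to 6.59% of other cells. Microglia markers summed to 20340 to 23887 CPM in interferon-high cells, with none of the 10 at 0, and monocyte markers to 24.6 to 61.4 CPM, with up to 2 of 5 at 0. In other cells monocyte markers summed to 13.1 to 50.1 CPM, with up to 1 at 0, lower than in interferon-high cells in 3 of 4 libraries and level with them in cKO replicate 1, and their part in the results was not tested. The results below are therefore also given for other cells matched in UMIs, for thinned cells, and without barcodes of other classes where the value moves.

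Irf1, the factor induced by both interferon classes, was at 59.2, 60.9, 74.4 and 95.7 CPM in interferon-high cells of Control replicates 1 and 2 and cKO replicates 1 and 2. In the other cells of these libraries it was at 41.6, 43.7, 46.9 and 58.2 CPM. It was higher in 4 of 4 libraries, and the lowest interferon-high value lay above the highest value of the other cells. The mean was 72.5 ± 16.9 against 47.6 ± 7.40 CPM (SD, n = 4), a log2 change of 0.61 (SE 0.05, edgeR adjusted p = 9.39e-11). Against other cells with the same UMI totals the log2 change was 0.59 (edgeR adjusted p = 2.74e-08), and with the class called after thinning it was 1.43 (edgeR adjusted p = 9.26e-36). Irf1 passed the test under all 17 alternative settings, with log2 changes from 0.45 to 1.43.

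Stat3, which carries interleukin-6 and interleukin-10 signals, was at 85.2, 87.1, 98.3 and 109 CPM in interferon-high cells and at 78.7, 73.1, 79.4 and 91.1 CPM in other cells. It was higher in 4 of 4 libraries, but the ranges of the classes overlapped. The log2 change was 0.24 (SE 0.04, edgeR adjusted p = 0.000217). With other cells matched in UMIs it was 0.13 and the call was lost (edgeR adjusted p = 0.268), and in cells thinned to 2000 UMIs it was 0.41 and not called (edgeR adjusted p = 0.495). Among 6 genes linked to STAT3, of which 5 could be tested, Pim1, a survival kinase, rose with a log2 change of 0.84 (SE 0.13, edgeR adjusted p = 1.62e-05). Bcl3, Il4ra, Junb and Mcl1 did not pass, with log2 changes from -0.07 to 0.58, and Osmr had no UMI.

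Ifngr1 moved the other way. Its level was 484, 384, 547 and 533 CPM in interferon-high cells and 580, 482, 607 and 621 CPM in other cells, lower in 4 of 4 libraries, although the ranges overlapped. The log2 change was -0.23 (SE 0.03, edgeR adjusted p = 6.09e-07), and it shrank to -0.13 with cells matched in UMIs (edgeR adjusted p = 0.00664). Ifngr2 was at 179 to 209 CPM in interferon-high and at 177 to 212 CPM in other cells, a log2 change of -0.02 with a 95% interval from -0.09 to 0.05. For Ifnar1 the change was 0.05 with an interval from -0.07 to 0.16, and for Ifnar2 0.08 with an interval from 0.01 to 0.14 (edgeR adjusted p = 0.129). A receptor change of 1.5-fold lies outside all 4 of these intervals. Ifnar2 passed when barcodes of other classes were left out, at 0.11 (edgeR adjusted p = 0.0241).

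Jak1 was level, at 155 to 188 CPM in interferon-high and 162 to 185 CPM in other cells, with an interval from -0.07 to 0.08 around a log2 change of 0.00. Jak2 was at 24.5, 17.0, 25.9 and 36.6 CPM in interferon-high and at 21.6, 20.3, 21.0 and 27.5 CPM in other cells. It was higher in 3 of 4 libraries and lower in Control replicate 2, where its interferon-high value rested on 63 UMIs. The log2 change of 0.21 (SE 0.09) did not pass (edgeR adjusted p = 0.152). Without Control replicate 2 it was 0.30 and passed (edgeR adjusted p = 0.0255), as it did with the class called after thinning, at 0.67 (edgeR adjusted p = 0.00716).

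The 2 feedback inhibitors parted. Socs3 was at 120, 102, 131 and 170 CPM in interferon-high and at 128, 116, 130 and 163 CPM in other cells, a log2 change of -0.03 with a 95% interval from -0.12 to 0.05. For Socs1 the levels were 17.1, 14.9, 20.4 and 29.4 CPM against 9.98, 10.8, 10.4 and 13.3 CPM. A link between the promoter letters shown above and these changes was not tested. Socs1 was higher in 4 of 4 libraries without overlap, with a log2 change of 0.87 (SE 0.11, edgeR adjusted p = 2.09e-07). Its size moved with how the cells were called. It was 0.51 with at least 2 of the 5 genes and 0.92 against other cells matched in UMIs. It was 2.17 with the class called after thinning and 2.47 in thinned cells. Each of these values passed the threshold. In thinned cells with 3 to 5 interferon genes, Socs1 was at 12.7 and 16.1 CPM in Control replicates 1 and 2. With none of the genes it was at 11.3 and 13 CPM there. In cKO replicates 1 and 2 it was at 108 and 123 CPM, against 11.1 and 12.5 CPM. The rise in thinned cells thus lay mainly in the cKO libraries, and the class with 3 to 5 genes held 37 Socs1 UMIs. The difference between the changes of Socs1 and Socs3 was not itself tested, although their 95% intervals, 0.65 to 1.09 and -0.12 to 0.05, lie apart.

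The rest of the pathway showed how unequal these changes were. Of 34 other interferon and JAK-STAT genes, 30 could be tested, of which 10 rose and 2 fell in interferon-high cells, with a median log2 change of 0.07. By smallest p the leading genes were Irf7, Usp18, Stat2, Socs1 and Irf8. Irf7, the factor that amplifies type I interferon, was at 77.8, 65.5, 77.8 and 111 CPM in interferon-high cells and at 10.4, 12.2, 9.44 and 11.9 CPM in other cells, a log2 change of 2.93 (SE 0.08, edgeR adjusted p = 2.6e-24). Usp18, which blocks the type I receptor at IFNAR2, changed by 2.79 (SE 0.09), Stat2 by 1.64 (SE 0.07) and Irf8, a factor of the myeloid lineage, by 0.19 (SE 0.03), each on the log2 scale and in 4 of 4 libraries. Irf7, Usp18, Stat2 and Socs1 are themselves interferon-induced, and so is the member Irf1. The class was called from interferon-induced genes, so the rise of all 5 describes the class rather than an independent readout. The kinase gene Tyk2 was at 26.5 ± 5.94 against 26.4 ± 2.28 CPM (SD, n = 4). The genes that fell were Lifr, a receptor of the interleukin-6 family, at -0.19, and Stat5b at -0.26. Osmr, Ifnb1, Ifng and Ifnlr1 had too few UMIs to test.

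**Figure D2:**
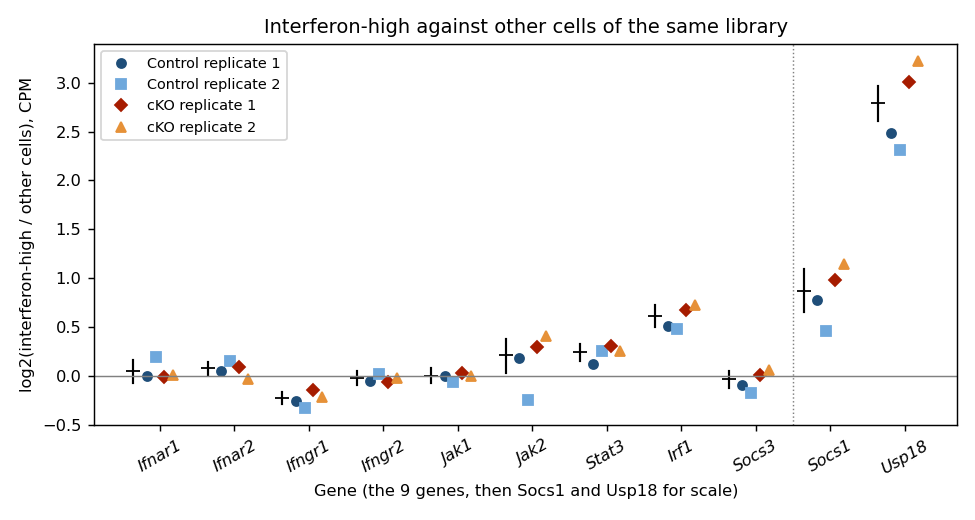
Change of each gene in interferon-high against other cells of the same library (y axis, log2 ratio of CPM; points, 1 per library), with the fitted change and its 95% interval as a black bar to the left of the points. Irf1 stands above the other 8 genes in all 4 libraries, Ifngr1 lies below 0, and Socs1 and Usp18 at the right give the scale of induced genes.

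A gene was called constitutive when it was at 10 CPM or more in both classes of all 4 libraries and the 95% interval of its change stayed within 1.5-fold. By this rule 8 of the 9 genes, all but Irf1, were constitutive. Over all genes tested the share was 57.1%, and it was 98% of the 7522 genes that reached the level of 10 CPM, so for genes as abundant as these, being constitutive is the usual outcome. Irf1 belonged to the few that were not. In cells thinned to 2000 UMIs, 4 of the 9 genes met the rule. The intervals are wider there, but the changes themselves also moved with the setting. For Jak2 the log2 change ran from 0.13 to 1.06 over 17 alternative settings, so its highest value lay beyond 1.5-fold. Its place among the constitutive genes therefore depends on how the cells are called.

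The levels were also followed over the number of interferon genes detected, in cells thinned to 2000 UMIs, as a description. Irf1 was at 44.6 ± 5.52 CPM (SD, n = 4) with none of the 5 genes, 64.6 ± 19.2 with 1, 66.6 ± 24.3 with 2 and 122 ± 26.6 with 3 to 5. In the last class the libraries lay at 146, 113, 142 and 89.0 CPM, all above the range of 40.2 to 52.6 CPM in cells with none. Socs1 was at 12 ± 0.939 CPM with none and at 65.0 ± 58.8 CPM with 3 to 5, a mean that rests on 37 UMIs, with 12.7, 16.1, 108 and 123 CPM in the 4 libraries. Jak2 stayed at 20.7 to 24.0 CPM up to 2 genes and was at 50.8 ± 18.9 CPM with 3 to 5, on 26 UMIs in all. Stat3 was at 79.1 ± 8.75 CPM with none and 111 ± 26.5 with 3 to 5, where cKO replicate 1 stayed at 74.3 CPM. Ifngr1 went from 614 ± 46.3 to 465 ± 57.3 CPM. Socs3, at 137 ± 15.2 and 155 ± 30.5 CPM in the first and the last class, showed no separation of the ranges. The last class held 31 to 79 cells per library.

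**Figure D3:**
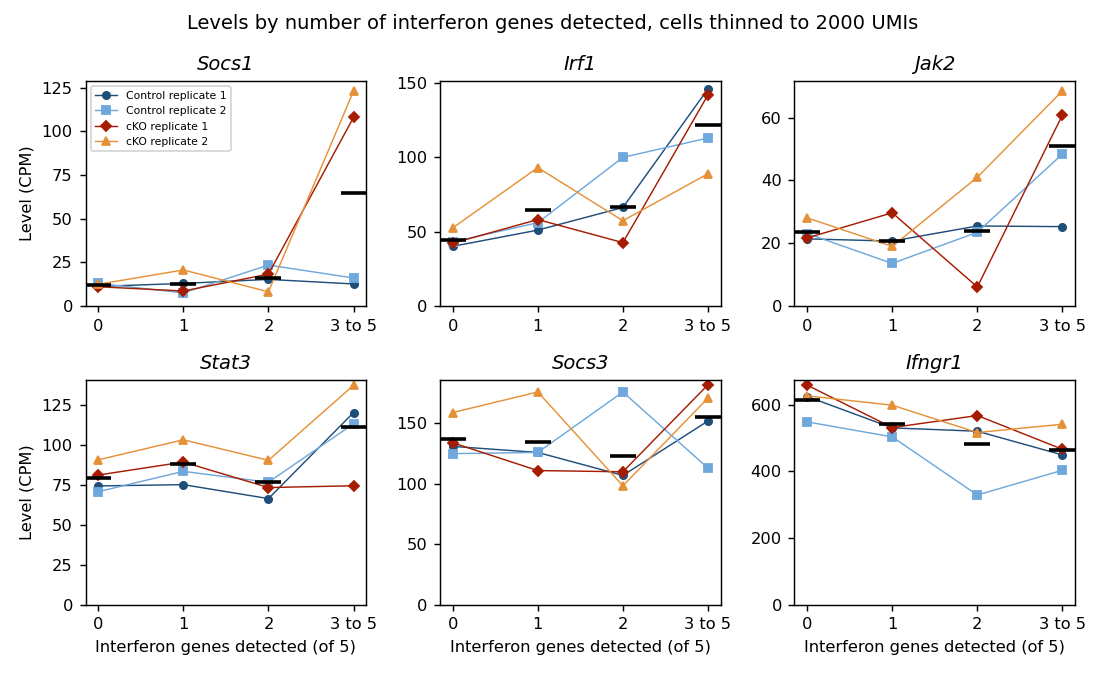
Level of 6 genes (y axis, CPM, axis from 0) by the number of interferon genes detected in cells thinned to 2000 UMIs (x axis), 1 line per library and a black bar at the mean. Irf1 goes from 44.6 to 122 CPM, Socs1 is high in the last class of both cKO libraries, on few UMIs, and Ifngr1 goes down from 614 to 465 CPM.

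With the main calls, MGnD-high cells set a larger contrast for these genes than interferon-high cells. Those calls were unlike, since the interferon class used all UMIs and the MGnD class thinned cells. With the interferon class also called after thinning, Irf1 changed by 1.43 on the log2 scale. No member changed by as much with the main MGnD call. MGnD is the neurodegenerative or disease-associated state of microglia, called here from UMIs of at least 3 of 12 genes (Clec7a, Itgax, Lpl, Cst7, Spp1, Gpnmb, Csf1, Igf1, Axl, Ch25h, Fabp5 and Dkk2) in cells thinned to 2000 UMIs. Ifnar2 rose in MGnD-high cells, while Ifngr1, Socs3, Irf1 and Jak1 fell. They made up 19.9%, 19.6%, 16.2% and 8.89% of the thinned cells in Control replicates 1 and 2 and cKO replicates 1 and 2, and held more UMIs, with medians of 10500 to 12900 against 5961 to 7250. Their median share of mitochondrial UMIs was higher too, at 2.85 to 3.65% against 1.81 to 2.44%, and its part in the results was not tested. In the same test 26.5% of 12897 genes rose and 25.9% fell, and of the 9 members 1 rose and 4 fell. With so many genes called, a called member is not in itself unusual. By size, Ifnar2, Ifngr1 and Socs3 lay furthest from the members' median of -0.07. How many of all genes changed by as much was not counted.

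Ifngr1 was at 332, 247, 307 and 277 CPM in MGnD-high cells and at 656, 562, 678 and 661 CPM in the other cells. It was lower in 4 of 4 libraries, with means of 291 ± 37.0 against 639 ± 52.2 CPM (SD, n = 4) and a log2 change of -0.85 (SE 0.04, edgeR adjusted p = 1.25e-13). Ifnar2 ran the opposite way, at 427, 448, 436 and 407 CPM in MGnD-high and 330, 344, 316 and 292 CPM in other cells, a log2 change of 0.71 (SE 0.04, edgeR adjusted p = 4.87e-13). The order of the 2 most abundant receptor genes was thus turned in MGnD-high cells: Ifnar2 lay above Ifngr1 there in every library, and below it in the other cells.

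Socs3 was at 69.4, 56.6, 70.7 and 71.0 CPM in MGnD-high and at 147, 135, 145 and 176 CPM in other cells, a log2 change of -0.87 (SE 0.05, edgeR adjusted p = 8.99e-13). Irf1 was at 30.9, 29.3, 34.8 and 41.3 CPM in MGnD-high and at 49.0, 53.2, 55.2 and 65.6 CPM in other cells, a log2 change of -0.43 (SE 0.06, edgeR adjusted p = 1.37e-06). Neither gene's ranges overlapped between the classes. Jak1 changed by -0.18 (SE 0.04, edgeR adjusted p = 0.00119). For Ifnar1, Ifngr2, Jak2 and Stat3 the log2 changes lay between -0.07 and 0.08 and did not pass. With other cells matched in UMIs the called changes were 0.65 for Ifnar2, -0.72 for Ifngr1, -0.81 for Socs3, -0.45 for Irf1 and -0.22 for Jak1. With the class called on all UMIs in place of thinned cells, Irf1 changed by only -0.15 (edgeR adjusted p = 0.038), Ifngr1 by -0.60, Socs3 by -0.55 and Ifnar2 by 0.53.

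Scaling moved this comparison. TMM factors, which set the bulk of genes level, were 0.854 to 0.925 in MGnD-high sums and 1.05 to 1.14 in the others. With them the median of all genes was -0.03, and with plain library totals it was -0.31 on the log2 scale. The split over all genes, 3414 higher and 3335 lower with TMM factors, turned to 1800 higher and 7300 lower on plain totals. On plain totals Ifnar1 and Ifngr2 turned to -0.23 and -0.21, Stat3 and Jak2 were called lower at -0.36 and -0.29, and Ifnar2 was still higher at 0.42, with Ifngr1 at -1.13 and Socs3 at -1.15. Ifnar2 was therefore the single member that was higher under both scalings. Of the 30 other pathway genes tested, 11 rose and 13 fell with TMM factors. Among them, Socs1 fell by 0.56 (SE 0.11) on the log2 scale, while Irf7, Usp18 and Stat2 rose by 0.56, 0.46 and 0.41. The 5 genes of the interferon class rose as well with TMM factors, from 0.54 for Ifit3 to 1.04 for Ifit2. The falls of Irf1 and Socs1 were thus not shared by these interferon-induced genes. Of 5 STAT3-linked genes 4 fell, namely Junb at -0.71, Mcl1 at -0.37, Pim1 at -0.48 and Bcl3 at -0.88, with a median over the 5 of -0.48.

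The interferon state and the MGnD state were crossed to see whether one hid the other, as levels without a test. Irf1 was at 52.3 ± 6.11 CPM (SD, n = 4) in cells in neither state, 79.6 ± 16.1 in interferon-high cells outside MGnD, 29.1 ± 5.2 in MGnD-high cells outside the interferon state and 54.7 ± 10.6 CPM in cells in both. Irf1 was thus higher in interferon-high cells on either side of the MGnD call. Socs3 separated by the MGnD call, at 151 ± 16.6 and 153 ± 24.6 CPM outside it and at 64.5 ± 7.44 and 76.7 ± 12.2 CPM inside it, each pair given for other and then interferon-high cells. Ifngr1 was at 651 ± 51.9 and 561 ± 59.7 CPM outside the MGnD call and at 288 ± 34.5 and 304 ± 52.1 CPM inside it. Cells in both states numbered 31 to 123 per library. With MGnD-high cells and all cells under 2000 UMIs left out of the interferon comparison, Irf1 changed by 0.61, Stat3 by 0.22 and Ifngr1 by -0.21 on the log2 scale, all still called.

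**Figure D4:**
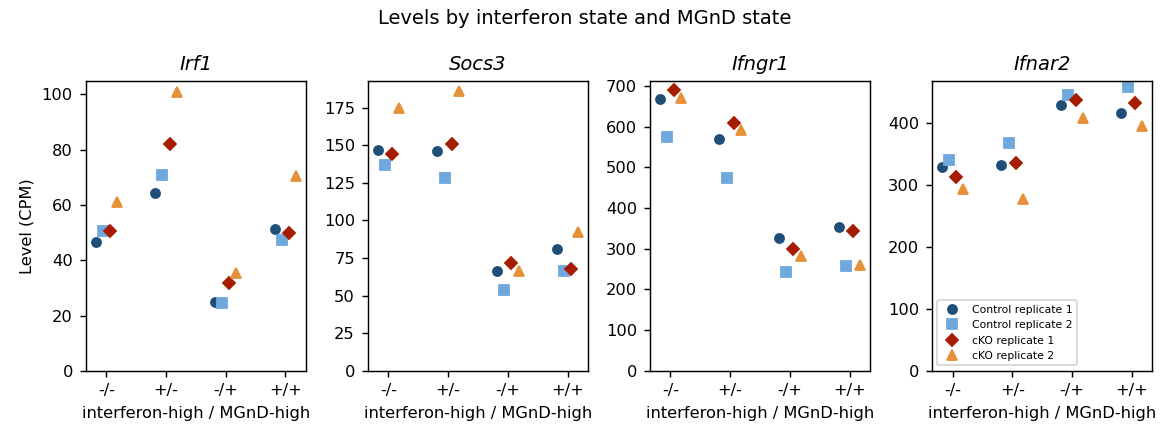
Level of 4 genes (y axis, CPM, axis from 0) in cells split by the interferon-high call and the MGnD-high call (x axis, first sign interferon, second sign MGnD), 1 point per library. Irf1 differs along both calls, Socs3 and Ifngr1 drop with the MGnD call, and Ifnar2 is higher with it.

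Heat-shock-high and cytokine-high cells moved fewer of the 9 genes and by less. Heat-shock-high cells held UMIs of at least 2 of Hspa1a, Hspa1b and Dnajb1 after thinning, and in them 3.94% of 12830 genes rose and 8.71% fell. Ifngr1 rose by 0.21 (SE 0.03, edgeR adjusted p = 8.94e-05) on the log2 scale, with 672, 628, 703 and 671 CPM against 557, 462, 582 and 591 CPM, and its ranges did not overlap. Socs3 rose by 0.26 (SE 0.05, edgeR adjusted p = 0.000354), with 163, 135, 153 and 193 CPM against 122, 111, 125 and 152 CPM. Ifnar2 changed by -0.20 (SE 0.04, edgeR adjusted p = 0.000635). The other 6 genes did not pass. Few heat-shock-high cells were MGnD-high. Of 713 in cKO replicate 2, 622 were outside both the interferon and MGnD calls and 77 were interferon-high outside MGnD. In Control replicate 1 these counts were 390, 347 and 23. The part of the MGnD state in the heat-shock changes was not tested. On plain library totals the split over all genes turned to 1570 higher and 814 lower, and Jak2 passed at 0.24 (edgeR adjusted p = 0.0378).

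Cytokine-high cells held UMIs of at least 3 of Tnf, Ccl3, Ccl4, Cd83, Il1a and Il1b after thinning, and in them 7.75% of 12794 genes rose and 5% fell. Ifngr1 was at 429, 378, 516 and 506 CPM in them and at 583, 484, 613 and 626 CPM in other cells, a log2 change of -0.29 (SE 0.04, edgeR adjusted p = 3.53e-07). Ifnar2 changed by 0.15 (SE 0.04, edgeR adjusted p = 0.00581), a call that was lost without Control replicate 1, at 0.13 (edgeR adjusted p = 0.0533), and on plain library totals, at 0.10 (edgeR adjusted p = 0.0591). Irf1, at 51.1 ± 9.59 against 50.9 ± 8.35 CPM (SD, n = 4), and Socs3, at 124 ± 23.2 against 134 ± 21.3 CPM, did not pass. The 5 genes of the interferon class did rise in cytokine-high cells, from 0.57 for Ifit3 to 1.16 for Rsad2 on the log2 scale. Irf1, the member that marked the interferon state, thus did not follow them there. On plain totals the split over all genes was 765 higher and 1086 lower. Ifngr1 and Ifnar2 thus passed with opposite signs in the MGnD, heat-shock and cytokine comparisons. These comparisons share their cells, so the 3 results are not independent.

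**Figure D5:**
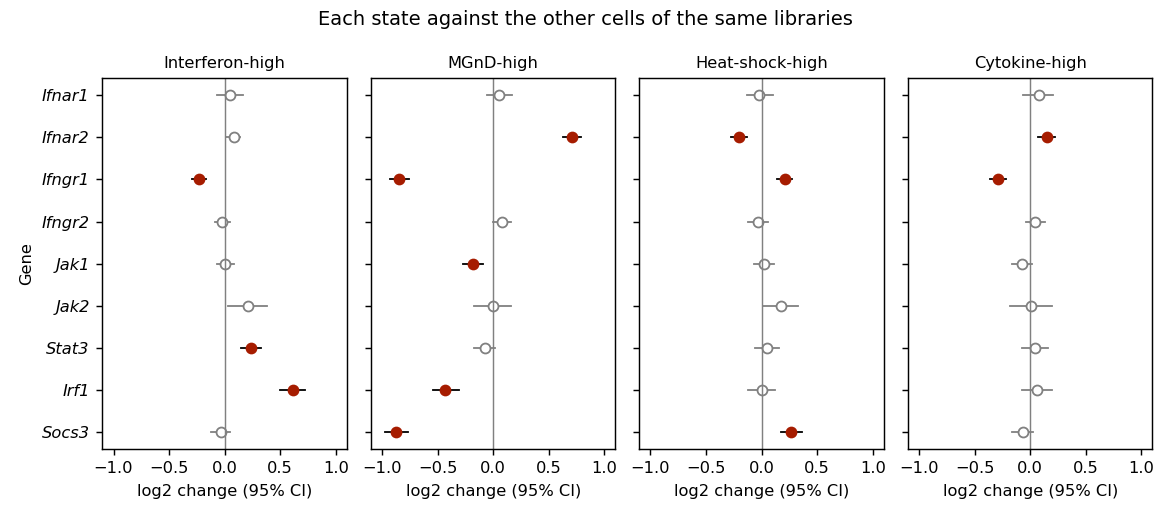
Fitted log2 change of each of the 9 genes in 4 states against the other cells of the same libraries (x axis; bars, 95% intervals; filled points, adjusted p under 0.05). The MGnD comparison holds the widest changes drawn, with Ifnar2 at 0.71 and Ifngr1 and Socs3 at -0.85 and -0.87. Irf1 is called upward in the interferon comparison only among the 4. The interferon class was called on all UMIs and the other states after thinning, so the sizes are not fully comparable between panels.

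The levels of Irf1, Socs3 and Stat3 were set beside those of 3090 other genes over 23 sums, 1 for each library and combination of interferon, MGnD and heat-shock call with at least 20 cells, after centring each library (Pearson's r of log2 CPM). Irf1 was most like 9930111J21Rik2 at r = 0.96, Samhd1 at 0.95 and Pik3ap1 at 0.94. Socs3 was most like 4931406C07Rik, Elmo1 and Mtus1, each at 0.98. Stat3 was most like Pik3ap1, Samhd1 and Camkk2, each at 0.92. The sums share libraries, depth and the called states, so these values describe likeness and carry no test.

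Between the genotypes no member passed the test. Comparing 2 cKO with 2 Control libraries (edgeR quasi-likelihood test, Benjamini-Hochberg adjustment over 13607 genes), 0 genes were called, or 0% of all tested, with 987 at an unadjusted p under 0.05, and DESeq2 called 18. The members' median log2 change was 0.10 against 0.007 over all genes, and 8 of 9 were positive. Irf1 had a mean of 45.2 ± 1.39 CPM in the Control libraries and of 56.9 ± 8.26 CPM in the cKO libraries (SD, n = 2). Its log2 change was 0.25 with a 95% interval from 0.02 to 0.47, and did not pass (edgeR adjusted p = 0.685). Ifnar2 went the other way, with means of 363 ± 12.5 and 322 ± 25.3 CPM and a log2 change of -0.25 with a 95% interval from -0.49 to -0.01 (edgeR adjusted p = 0.685). Socs3 was at 120 ± 9.29 and 147 ± 23.3 CPM, with 0.20 (SE 0.10, edgeR adjusted p = 0.702). Ifngr1, which holds the seed match shown above, was at 517 ± 68.7 and 604 ± 8.80 CPM, with 0.15 and a 95% interval from -0.10 to 0.39. The remaining 5 genes had changes from 0.03 to 0.18.

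Much of the positive lean lay in cKO replicate 2, the library of the other run code. Without cKO replicate 1, so with cKO replicate 2 as the lone cKO library and its spread assumed to be that of the Control libraries, Irf1 passed at 0.37 (edgeR adjusted p = 0.037), Socs3 at 0.33 (edgeR adjusted p = 0.0352) and Jak2 at 0.34 (edgeR adjusted p = 0.0389). Without cKO replicate 2, within the shared run code, Irf1 was at 0.12 and Socs3 at 0.06, each with an edgeR adjusted p of 1. Without Control replicate 1, whose Xist level goes against its label, Irf1 was at 0.17 and Ifnar2 at -0.33, with edgeR adjusted p = 0.948 and 0.869. Heat-shock-high cells made up 26.7% of the thinned cells in cKO replicate 2 and 6.42 to 14.1% in the other libraries. Leaving out both them and all cells under 2000 UMIs gave 0.22 for Irf1 and 0.17 for Socs3. MGnD-high cells, in which Ifnar2 was higher and Ifngr1, Socs3 and Irf1 lower, were fewer in the cKO libraries. They made up 19.9% and 19.6% of thinned cells in Control replicates 1 and 2 and 16.2% and 8.89% in cKO replicates 1 and 2. No member passed with MGnD-high cells and all cells under 2000 UMIs left out. The part of their share in the sizes of the genotype changes was not tested. In barcodes of at most 100 UMIs, Irf1 was at 63.2 CPM in cKO replicate 2 and at 35.4 to 45.9 CPM elsewhere, and Socs3 at 169 CPM and at 103 to 119 CPM. The part of that free RNA in the result was not tested.

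Of the 30 other pathway genes tested between genotypes 0 were called, and 23 had a positive change. By smallest p they were Il2rg, the common gamma chain of several cytokine receptors, at 3.00 and 4.93 CPM in the Control libraries against 8.67 and 8.36 CPM in the cKO libraries, then Il6st, the shared chain of interleukin-6 receptors, at 232 and 184 against 181 and 176 CPM, and Usp18 at 21.2 and 20.1 against 24.0 and 27.8 CPM. Their log2 changes were 1.04, -0.30 and 0.24, with edgeR adjusted p = 0.545, 0.685 and 0.685. Lifr and Cish followed with 0.20 and 0.80. Socs1 differed by 0.19 (SE 0.14) and Tyk2 by 0.13 (SE 0.08), neither of them called. The 5 STAT3-linked genes were all positive, with a median of 0.22, and none was called.

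Whether the interferon state moved the 9 genes differently in the cKO was tested as an interaction of genotype and interferon state, on 8 sums with the library as a block. Of 12910 genes 20 were called, or 0.155%, and none of the 9 members was among them, each with an edgeR adjusted p of 0.999. For Irf1 the difference between the changes, cKO minus Control, was 0.19 on the log2 scale with a 95% interval from -0.02 to 0.40, the changes being 0.51 and 0.48 in the Control and 0.67 and 0.72 in the cKO libraries. For Jak2 it was 0.33 with a 95% interval from 0.00 to 0.66. For Socs3 it was 0.16 with an interval from -0.01 to 0.32, and for Stat3 0.11 with one from -0.08 to 0.29. Socs1, which is not one of the 9, had a difference of 0.41 with an interval from 0.00 to 0.81. It was not called (edgeR adjusted p = 0.999), and the difference ran from 0.27 to 1.16 over alternative settings. With 2 libraries per genotype, differences of these sizes in the response of the members were not separable from the spread.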

How the data were processed

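The data are 4 single-cell 3′ libraries (10x Genomics, v3.1). The deposited values are raw UMI counts per gene and barcode, whole numbers with no normalization. Per the submitters' processing notes, the authors ran Cell Ranger 4.0.0 and used the build mm10. The matrices were unfiltered. The deposited barcodes and gene names (other: no measurement) label the matrix per the file headers. Of the symbols, 38 were shared by more than 1 feature, so identifiers were used as keys. Deposited UMIs came to 33130800 to 47574406 per library, and the cells numbered 4351, 2909, 3828 and 2852 with medians of 6158, 6426, 6183 and 7236 UMIs in Control replicates 1 and 2 and cKO replicates 1 and 2.

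Cells are not replicates, so raw UMIs were summed per library, or per library and class, and tested by the two-sided quasi-likelihood test of edgeR 4.0.16 (R 4.3.3) after its filter on low counts (filterByExpr) and TMM scaling, with Benjamini-Hochberg adjustment at 0.05. The procedure was run on simulated data with changes larger than those of the members between genotypes and with no outlying library. That run does not bear on genotype changes as small as those seen here. DESeq2 1.42.0 was an alternative. Genes that define a class left its test but stayed in the library totals. Printed CPM values are not TMM-scaled, while the fitted log2 changes are. No doublet caller was run. Barcodes with at most 15000 UMIs were used alone as an alternative chosen after seeing the data, as were cells matched in UMIs and plain library totals. The members, lists, classes and tests were chosen with earlier results of these data known. The rule for named genes took all 9 members in each comparison, up to 5 of 34 pathway genes by smallest p, Socs1, Tyk2, 6 STAT3-linked genes and the checks Mir155hg and Xist. Il4ra and Osmr stand in both lists. A further item that the rule names is not reported here.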

Additional observations from a re-analysis of the deposited data

Results flagged for a closer look

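The change of 20 genes in interferon-high cells differed between the genotypes by the test of the interaction itself (edgeR, Benjamini-Hochberg over 12910 genes), 18 of them with a more positive change in the cKO and 2 with a more negative one. This split did not hold across settings, since it was 5 and 14 with the class called after thinning and 9 and 11 without cKO replicate 2. Among the interferon and JAK-STAT genes this was Usp18, which blocks signalling at the type I receptor. Usp18 was at 70.2 and 63.0 CPM in interferon-high cells of Control replicates 1 and 2 and at 93.4 and 129 CPM in those of cKO replicates 1 and 2. In other cells it was at 12.5, 12.7, 11.6 and 13.9 CPM. The groups did not overlap in interferon-high cells and did in other cells. How many of all genes did so was not counted. The 5 genes that define the class were also higher in interferon-high cells of both cKO libraries. Isg15 was at 249 and 233 CPM there in Control replicates 1 and 2 and at 309 and 399 CPM in cKO replicates 1 and 2. For Rsad2 these levels were 64.5, 47.9, 88.8 and 94.4 CPM. The part of this in the Usp18 difference was not tested. The log2 changes of Usp18 were 2.49 and 2.31 in the Control and 3.01 and 3.22 in the cKO libraries, a difference of 0.70 (SE 0.13, edgeR adjusted p = 0.00316). With the class called after thinning it was 0.82 (edgeR adjusted p = 0.0221). Without Control replicate 1 it was 0.80 (edgeR adjusted p = 0.00646). The call was lost without cKO replicate 2, at 0.58 (edgeR adjusted p = 0.0656), and without Control replicate 2, at 0.62 (edgeR adjusted p = 0.074).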

How the results depend on the processing

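Of 558 values of the 9 genes under alternative settings, 506 were counted as the same, 17 passed the threshold anew, 6 lost it and 29 were counted as changed in sign. Main values that round to 0.00 could not be counted as changed in sign. These were Jak1 in the interferon comparison, at -0.03 to 0.11 over settings, Irf1 in the heat-shock comparison, at -0.03 to 0.07, and Jak2 in the MGnD comparison, at -0.29 to 0.07. A value with no adjusted p and no sign change was counted as the same, so 506 is an upper bound and 29 a lower one. The cause of each shift was not tested. Sign changes of genes near 0 between genotypes were Ifnar1, from -0.02 without Control replicate 2 to 0.22 over libraries left out, and Jak1, from -0.01 without cKO replicate 1 to 0.08. In the interferon comparison Ifnar1 was at -0.12 with the class called after thinning and -0.06 with at most 15000 UMIs, Ifnar2 at -0.09 in thinned cells, and Socs3 at 0.02 without MGnD-high cells, 0.18 in thinned cells, 0.09 with at least 4 genes and 0.25 with the class called after thinning. In the interaction Ifngr2 was at 0.02 without cKO replicate 1 (down to -0.07 without cKO replicate 2) and 0.01 with the class called after thinning. In the MGnD comparison without TMM factors Ifnar1 was at -0.23 and Ifngr2 at -0.21. In the heat-shock comparison Ifnar1 was at 0.06 without TMM factors, 0.01 without cKO replicate 2 and 0.02 without Control replicate 1, with the class called on all UMIs and without interferon-high cells (down to -0.04 without cKO replicate 1), and Ifngr2 at 0.05 without TMM factors. In the cytokine comparison, without TMM factors, Ifngr2 and Stat3 were at -0.01 and Jak2 at -0.04. Jak2 there was at -0.02 and -0.06 without Control replicates 1 and 2 (up to 0.08 without cKO replicate 1), -0.04 with the class called on all UMIs and -0.07 without interferon-high cells. Stat3 and Irf1 were at -0.02 without cKO replicate 1, with up to 0.11 and 0.10 over the other libraries left out, and Irf1 at -0.04 without interferon-high cells.

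Between genotypes 0 genes were called, against 26 to 616 when 1 library was left out, the highest without cKO replicate 1. The count was 17 without TMM factors, 18 with DESeq2 (adjusted p not given for 12662 genes), 350 without a filter on low counts, 3 without barcodes of other classes, 7 without MGnD-high, 3 without interferon-high and 5 without heat-shock-high cells, 6 in thinned cells and 4 with at most 15000 UMIs. In the interferon comparison 1195 genes were called, against 622 with DESeq2, 257 without the library block, 392 in thinned cells, 2009 and 766 with at least 2 and at least 4 genes and 562 with cells matched in UMIs. The interaction called 20 genes, and 16 to 64 with 1 library left out. The heat-shock comparison called 1624, and 3551 with the class called on all UMIs, and 1033 to 1456 with 1 library left out, lowest without Control replicate 1. The cytokine comparison called 1631, and 3097 with the class called on all UMIs. Constitutive members numbered 8, and 4 in thinned cells.

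With the replicate number as a block the genotype comparison called 170 genes and the interaction 38. No label says that a number pairs libraries, and same-numbered libraries deviated together with r = 0.18 across 13607 genes, so the replicate block is not taken as a pairing, and no member passed with it. With 2 libraries per genotype the fit has 2 residual degrees of freedom.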

Other observations

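Other genes whose change in interferon-high cells differed between the genotypes, named after their values were seen, included the interferon-induced genes Mx1, Oasl2, Herc6, Slfn5 and Slfn2, with differences of 0.77, 0.48, 0.46, 0.46 and 0.34 on the log2 scale, cKO minus Control. The genes that define the class were higher in interferon-high cells of the cKO libraries too, and the part of this was not tested. The chemokine genes Cxcl10, Ccl12, Ccl2, Ccl4 and Ccl5 were called as well, with 1.08, 0.61, 0.36, 0.32 and 2.06. For Ccl5 the genotypes overlapped, with changes of 1.94 and -1.27 in Control replicates 1 and 2 and of 0.91 and 3.64 in cKO replicates 1 and 2. Cxcl10, an interferon-induced chemokine, changed by 2.68 and 4.29 in Control replicates 1 and 2 and by 4.47 and 4.74 in cKO replicates 1 and 2, so Control replicate 2 lay near the cKO values. Il1b, a cytokine gene, changed by -0.62 and -0.02 in the Control and by 1.09 and 1.40 in the cKO libraries, on 20 to 93 UMIs in interferon-high cells. Ly6c2, a monocyte marker, differed by -3.30, with 44, 0, 15 and 0 UMIs in the interferon-high cells of Control replicates 1 and 2 and cKO replicates 1 and 2. Mki67 and Hist1h1b were called too, with changes of 0.94 and 0.93 in cKO replicate 1 but -0.05 for each in cKO replicate 2. So was Ttr, a choroid plexus marker, on 311, 1, 2 and 24 UMIs in the interferon-high cells, in the order given for Ly6c2.

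Ifnb1, the gene of interferon beta, had 13 UMIs in 13940 cells. Of these, 11 lay in a single cell of cKO replicate 2, with 20612 UMIs and 4 of the 5 interferon genes detected, which was also cytokine-high. The other 2 UMIs lay in 1 cell of Control replicate 2 and 1 cell of cKO replicate 1. The cell of Control replicate 2 also had 4 of the 5 interferon genes and was cytokine-high, while that of cKO replicate 1 had 1 and was neither.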
